A study of Mus musculus with 4 samples.

Results

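The transcripts of 9 genes were followed between shCtrl and shUSP9X cells: the interferon regulatory factors Irf1, Irf2, Irf3, Irf5, Irf7 and Irf9 and the signal transducers Stat2, Stat3 and Stat6. They were picked by gene symbol from the 22063 genes of the deposited table, each symbol named a single row, and all 9 had enough counts to be tested. The cells were ID8, a mouse ovarian cancer line, labelled wild type with a control hairpin RNA (shCtrl, 2 libraries) or carrying a hairpin RNA against the deubiquitinase USP9X (shUSP9X, 2 libraries). Poly(A) RNA was sequenced, and the estimated counts came to a total of 17232006 and 15611363 per shCtrl library and 19978889 and 17021261 per shUSP9X library. Which hairpin sequence the shUSP9X libraries carry, and whether both carry the same, is not given in the sources used here. The study asked how loss of USP9X alters TGF-β and hypoxia signaling. No interferon or other cytokine is named for these 4 libraries, and whether they received TGF-β1, low oxygen or neither is not given in the sources used here. Nothing says that the libraries of a group came from separate cultures, so p-values measure the spread between these libraries, which may be technical. The knockdown itself, other effects of the hairpin sequence against USP9X and separate handling of the cells cannot be told apart. Each shUSP9X library carries all of them, and the shCtrl libraries carry a control hairpin RNA instead. In such bulk RNA, a change in the share of cells that express a gene and a change in transcript per cell cannot be told apart either.

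Interferon regulatory factors (IRFs) are transcription factors that bind GAAA repeats in the promoters of interferon genes and of the genes that interferons switch on. STATs wait in the cytoplasm until Janus kinases at a cytokine receptor phosphorylate them, and they then enter the nucleus as dimers. After type I interferon, STAT2 and IRF9 work in the complex ISGF3, which binds the interferon-stimulated response element. IRF3, IRF5 and IRF7 act upstream, where sensors of foreign nucleic acid and their kinases switch them on to induce the interferons themselves. STAT3 answers cytokines of the IL-6 family and STAT6 answers IL-4 and IL-13. IRF7, IRF9 and STAT2 are also known as interferon-induced genes, so their transcripts are both parts and products of the pathway.

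The promoters of the members that rose most, and of those holding a motif, are shown because the family acts through such motifs. RefSeq promoter windows (GRCm38.p6, from 250 bases before to 50 after the RefSeq transcription start) were available for all 9 genes. They were searched on both strands for the interferon-stimulated response element written as GAAANNGAAA and for the gamma-activated site, the STAT dimer motif, written as TTCNNNGAA, which reads the same on both strands. The response element was in 3.44% of all 32851 windows and the gamma-activated site in 8.3%. Counted per gene, the shares were 3.99% and 9.55% of the 27025 genes with a window. Each motif was in the windows of 2 of the 9 members. Stat2 and Irf2 held the response element, at positions -222 and -241 from the start, and Irf2 and Irf1 held the gamma-activated site, at -224 and -90. The matches are in capitals, 5′ to 3′ on the gene's strand, and in Stat2 the response element lies on the opposite strand. The first lies at chr10:128270248-128270315 (plus strand), the second at chr8:46739495-46739559 (plus strand) and the third at chr11:53769894-53769962 (plus strand).
Stat2: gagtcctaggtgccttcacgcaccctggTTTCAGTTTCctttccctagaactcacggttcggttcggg
Irf2: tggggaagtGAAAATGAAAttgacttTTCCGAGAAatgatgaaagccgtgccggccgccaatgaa
Irf1: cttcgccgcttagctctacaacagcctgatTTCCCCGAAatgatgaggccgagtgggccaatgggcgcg
In Irf2 the motifs do not overlap each other. The windows of Irf7, which changed most, and of Irf9, which changed as much as Stat2, held neither set of letters, and 150 bases before a RefSeq start follow for each. Irf9 has a further RefSeq start downstream, whose window also held neither and is not printed. That of Irf7 lies at chr7:141266425-141266574 (minus strand) and that of Irf9 at chr14:55603835-55603984 (plus strand). A window without a match says only that these letters are not in it.
Irf7: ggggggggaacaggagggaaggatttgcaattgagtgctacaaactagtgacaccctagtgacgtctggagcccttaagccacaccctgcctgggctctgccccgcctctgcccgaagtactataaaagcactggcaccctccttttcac
Irf9: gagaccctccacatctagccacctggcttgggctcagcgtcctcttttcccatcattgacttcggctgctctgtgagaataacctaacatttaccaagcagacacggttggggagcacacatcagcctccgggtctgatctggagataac

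Usp9x, the gene the hairpin RNA targets, was counted 5169 and 4453 times in the shCtrl libraries and 390 and 346 times in the shUSP9X libraries. It differed by -3.85 on the log2 scale (standard error 0.06, edgeR's adjusted p = 4.7e-26), so the labels and the targeted transcript go together, and by -2.31 once the trends on GC content and length were removed. Against that background the shUSP9X cells differed from the shCtrl cells in a large part of the transcriptome. At an adjusted p (edgeR) under 0.05, 67.3% of the 11448 genes tested were called, 33.8% higher and 33.6% lower. Removing each library's trend on GC content and transcript length gave 63.4% called, 38.2% higher and 25.2% lower, with 6074 genes called in both fits, and moved the share of calls that were higher from 50.1 to 60.3%. A call alone is therefore common in these data, and the size of a change says more about a member than its call. Over all genes tested the median absolute log2 fold change was 0.38, and the 99th percentile was 3.73.

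Of the 9 members, 5 were higher in shUSP9X cells (55.6%, where 33.8% of all genes tested were), none was lower and 4 did not pass the test. Irf7 rose 16.7-fold and Irf9 and Stat2 3.66-fold, while Irf2 and Stat6 rose 1.28-fold and 1.23-fold and Irf1, Irf3, Irf5 and Stat3 had log2 fold changes between 0.07 and 0.11. The median over the 9 was 0.30, against 0.00 over all genes tested. At the study's own cutoff (p under 0.05 without adjustment, fold above 1.5) Irf7, Irf9 and Stat2 were higher, where 10.8% of all genes tested were. DESeq2 also called 5 members higher and none lower, and it called 57.3% of all genes, 29.1% higher and 28.3% lower. All 9 log2 fold changes were above 0 in the edgeR fit, so 0 members were lower at an unadjusted p under 0.05 too.

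Irf7 (ENSMUSG00000025498, GRCm38 chromosome 7, 141262706 to 141266481), the factor known as the main driver of interferon-alpha genes, had the largest change. It was counted 185 and 151 times in the shCtrl libraries and 3373 and 2818 times in the shUSP9X libraries. Scaled for library size (TMM), that was 10.7 and 9.55 CPM (counts scaled to a common library size) against 171 and 167 CPM. Both knockdown libraries stood far above both controls, and the libraries of each group lay close to each other. The log2 fold change was 4.06 (standard error 0.07, edgeR's adjusted p = 4.0e-25), a 16.7-fold difference. Of the 11448 genes tested, 63 had a log2 fold change at least as high, Irf7 itself included. That count holds rises only, and some genes fell by more, such as Fos at -4.63. Over the alternative settings its log2 fold change lay between 3.85 and 4.15.

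Stat2 (ENSMUSG00000040033, chromosome 10, 128270559 to 128292849) encodes the ISGF3 subunit that carries the transactivation domain. It was counted 412 and 384 times in the controls and 1695 and 1518 times after knockdown. Irf9 (ENSMUSG00000002325, chromosome 14, 55603571 to 55610030), the subunit that recognizes DNA, was counted 217 and 232 times in shCtrl and 991 and 829 times in shUSP9X libraries. The 2 partners of the complex rose side by side, and for each of them the groups did not overlap. Both had a log2 fold change of 1.87, with a standard error of 0.07 for Stat2 (edgeR's adjusted p = 2.6e-18) and 0.10 for Irf9 (edgeR's adjusted p = 1.9e-15). The value stayed between 1.67 and 1.91 for Stat2 and between 1.70 and 1.99 for Irf9 over the alternative settings. Their log2 fold changes were equal to 2 decimals.

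Irf1 (ENSMUSG00000018899, chromosome 11, 53770014 to 53778374), an activator best known from the interferon-gamma response, was already abundant in shCtrl cells and did not pass the test. Its counts were 1719 and 1475 against 2024 and 1695, or 99.1 and 93.3 CPM against 102 and 101 CPM. The libraries of the groups lay next to each other without overlapping, as they did for 82.3% of all genes tested, and for 8 of the 9 members. The log2 fold change was 0.08 (standard error 0.05, edgeR's adjusted p = 0.198), and it turned to -0.11 once the GC content and length trends were removed (edgeR's adjusted p = 0.0506). Irf2 (ENSMUSG00000031627, chromosome 8, 46739732 to 46847458) binds the same sites and is known mostly as a counterweight to IRF1. It was counted 460 and 338 times in shCtrl and 613 and 512 times in shUSP9X libraries. The shCtrl libraries differed from each other more than the shUSP9X libraries did. The log2 fold change was 0.35 (standard error 0.10, edgeR's adjusted p = 0.00306), and without shCtrl replicate 2 it was 0.22 and no longer passed (edgeR's adjusted p = 0.0606).

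Irf3 (ENSMUSG00000003184, chromosome 7, 44997648 to 45002848) is the constitutively made factor that the kinase TBK1 phosphorylates to start interferon-beta transcription. It was counted 582 and 534 times against 696 and 600 times, or 33.6 and 33.8 CPM against 35.2 and 35.6 CPM. Its log2 fold change of 0.07 (standard error 0.08, edgeR's adjusted p = 0.439) turned to -0.16 with the trends removed (edgeR's adjusted p = 0.0779). Neither direction passed the test. Irf5 (ENSMUSG00000029771, chromosome 6, 29526625 to 29541871), which acts below Toll-like receptors on inflammatory cytokine genes, was the least abundant member. Its estimated counts were 137 and 167 in shCtrl and 212.46 and 152.1 in shUSP9X libraries. It was the single member whose groups overlapped in CPM, and its log2 fold change of 0.11 (standard error 0.16, edgeR's adjusted p = 0.569) changed sign when shCtrl replicate 1 or shUSP9X replicate 1 was left out.

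Stat6 (ENSMUSG00000002147, chromosome 10, 127642986 to 127660957) was counted 2545 and 2343 times in shCtrl and 3670 and 2987 times in shUSP9X libraries. That was 147 and 148 CPM against 186 and 177 CPM, a small step with little spread in the controls. The log2 fold change was 0.30 (standard error 0.05, edgeR's adjusted p = 1.7e-06), 0.19 with the trends removed, and it passed the test in all 15 alternative fits. Stat3 (ENSMUSG00000004040, chromosome 11, 100885098 to 100939540) was counted 2773 and 2688 times in shCtrl and 3474 and 2887 times in shUSP9X libraries. At 160 and 170 CPM against 176 and 171 CPM, the groups lay almost on top of each other. It differed by 0.07 on the log2 scale (standard error 0.05, edgeR's adjusted p = 0.153), and with the trends removed it was 0.12 and passed the threshold (edgeR's adjusted p = 0.0157).

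**Figure D1:**
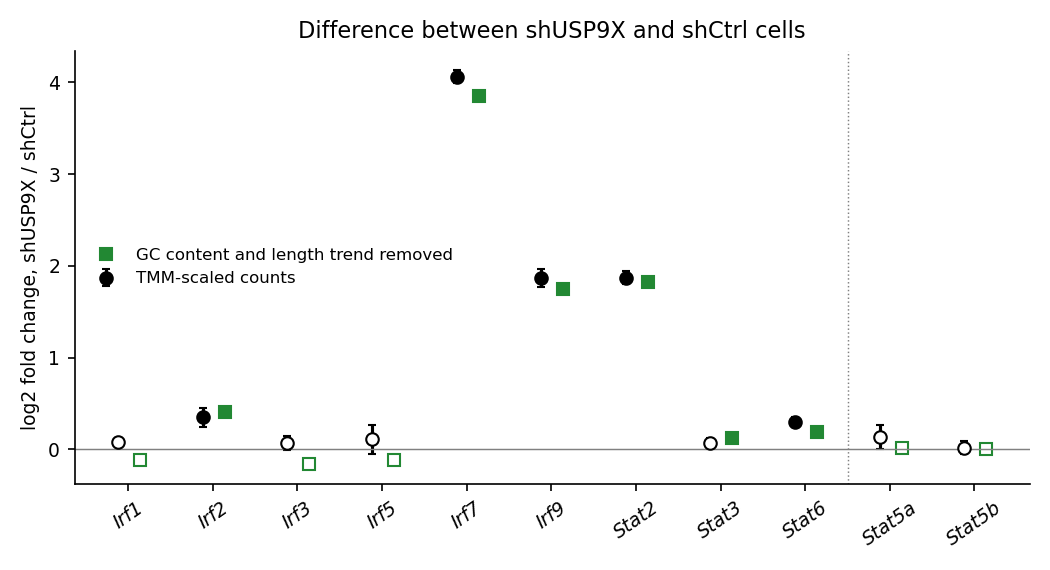
Log2 fold change of shUSP9X against shCtrl cells (y axis) for the 9 members, left of the dotted line, and for Stat5a and Stat5b, right of it. Circles are from TMM-scaled counts with bars of 1 standard error, squares are without the trends on GC content and length, and filled symbols have an adjusted p (edgeR) under 0.05; Irf7 stands at 4.06, and Irf9 and Stat2 at 1.87, and Irf1, Irf3 and Irf5 change sign between the settings.

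Levels were compared between members as FPKM, which divides by transcript length. In shCtrl cells Irf1 was highest at 51.8 ± 4.14 FPKM (mean ± SD, n = 2 libraries), followed by Stat6 at 39.4 ± 0.448 and Stat3 at 38.4 ± 2.09 FPKM, which overlapped. Irf3 at 20.5 ± 0.682 and Irf2 at 12.5 ± 1.08 FPKM came next. Stat2 at 5.52 ± 0.111, Irf9 at 5.42 ± 0.627 and Irf7 at 5.38 ± 0.593 FPKM could not be put in order, and Irf5 came last at 4.26 ± 0.887 FPKM. The 3 members that rose most thus shared almost the same low level in control cells.

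In shUSP9X cells Irf7 led the order at 93.2 ± 4.32 FPKM, above Irf1 at 55.4 ± 1.49, Stat6 at 50 ± 1.68 and Stat3 at 39.7 ± 0.663 FPKM. Irf3 at 20.2 ± 1.31, Stat2 at 19.8 ± 0.699 and Irf9 at 19.8 ± 0.455 FPKM overlapped. Irf2 at 14.8 ± 0.719 and Irf5 at 4.64 ± 0.659 FPKM stood below them. Summed over the 9 members, FPKM was 184 and 182 in shCtrl and 323 and 312 in shUSP9X libraries. Irf7 alone made up 3.15 and 2.72% of that sum in the controls and 29.8 and 28.9% in the knockdown libraries. Between the groups, FPKM values overlapped for Irf1, Irf3, Irf5 and Stat3.

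**Figure D2:**
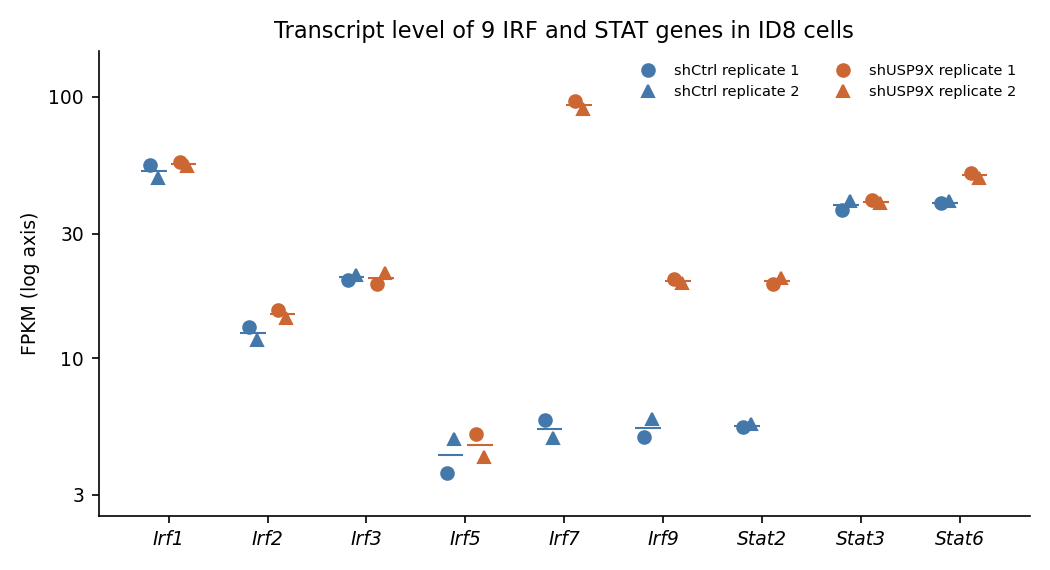
FPKM of each member in each of the 4 libraries, on a log axis, with shCtrl in blue and shUSP9X in orange, replicate 1 as circles, replicate 2 as triangles and the group mean as a line. Irf7, Irf9 and Stat2 sit near 5 FPKM in the shCtrl libraries and at 93.2, 19.8 and 19.8 FPKM on average in the shUSP9X libraries. For each of the other 6 the group means lie nearer each other on this axis, without overlap of the libraries for Irf2 and Stat6.

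Other genes of both families were looked up beside the members. Stat5b, which answers growth hormone and other cytokines, had a log2 fold change of 0.02 (standard error 0.07, edgeR's adjusted p = 0.845), and library-size scaling turned it to -0.01. Stat5a, its near-identical neighbour gene, had 0.14 (standard error 0.13, edgeR's adjusted p = 0.339), which the FPKM values turned to -0.35 or -0.42, and estimated counts may have divided reads between these copies wrongly. Irf4, a factor of lymphocytes, had no count in any library, and Irf8, a factor of myeloid cells, had 1 count in a single shCtrl library. Stat4, which answers IL-12, had 1 count in a single shUSP9X library. A count of 3, the floor taken for a library, corresponds to between 0.152 and 0.19 CPM, and it covers counting error only.

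The deposited FPKM and counts did not imply the same length for a gene in every library. The implied length is the length by which the count, scaled to its library total, has to be divided to give the FPKM. For Stat2 it was 4394 bases in all 4 libraries. For Irf7 it was 1852 and 1951 bases in shCtrl and 1755 and 1838 bases in shUSP9X libraries, a difference of -5.55% that is small beside its change in counts. For Stat6 it was 3775 bases in both shCtrl libraries and 3591 and 3598 bases in the shUSP9X libraries (-4.78%). Stat6 and Irf7 were thus among the 18.2% of 9812 genes with at least 50 counts in every library whose implied lengths did not overlap and lay over 4% apart. Stat5a differed most in its family, with 2447 and 2291 bases in shCtrl and 3710 and 3236 bases in shUSP9X libraries (46.6%). A gap over 25% without overlap was found for 2.08% of the genes. Stat5a accordingly had 5.46 and 5.13 FPKM in shCtrl and 3.47 and 4.47 FPKM in shUSP9X libraries, without overlap, while its CPM values overlapped.

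**Figure D3:**
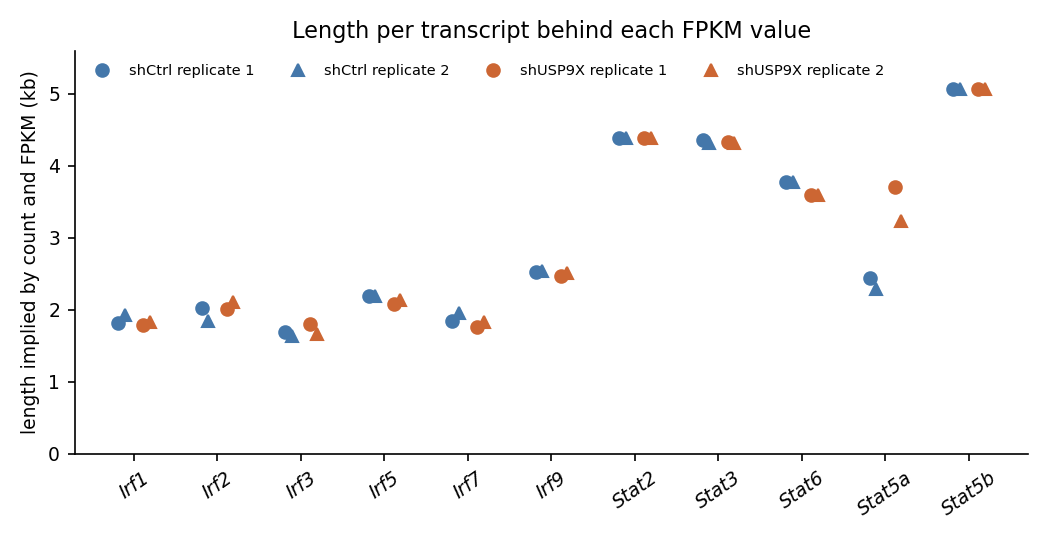
Length in kilobases implied by each gene's deposited count and FPKM (y axis, from 0) in the 4 libraries, with colours and symbols by group and replicate as in the legend. Stat2 and Stat5b stay at almost the same length in all libraries, Stat6 is slightly shorter in the shUSP9X libraries, and Stat5a goes from 2447 and 2291 bases to 3710 and 3236.

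Upstream of the members, the list of interferon and cytokine ligands was almost silent. Of its 28 genes, 21 had no count in any library and 2 could be tested. The interferon genes themselves numbered 21, and 20 of them were at 0 in all libraries, the exception being a single count for Ifnab. Interferon transcripts were thus not detectable at this depth in either group. Lif, an IL-6 family cytokine that signals to STAT3, rose from 340 and 297 to 568 and 496 counts (log2 fold change 0.60, standard error 0.10, edgeR's adjusted p = 5.8e-06). Clcf1, another ligand of that family and the most abundant of the list per length, had a log2 fold change of -0.15 (standard error 0.07, edgeR's adjusted p = 0.0477), a call that was lost in DESeq2 and under most other settings but firmer once the trends were removed (-0.39, edgeR's adjusted p = 1.7e-05).

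Among receptors and Janus kinases, 17 of 18 genes were tested, 3 were higher and 7 lower (17.6 and 41.2%, where 33.8 and 33.6% of all genes were), with a median log2 fold change of -0.13. Once the trends on GC content and length were removed, 7 were higher and 5 lower, beside 38.2 and 25.2% of all genes. Jak2, a kinase of the interferon-gamma and many cytokine receptors, fell from 1902 and 1694 to 872 and 753 counts (log2 fold change -1.29, standard error 0.06, edgeR's adjusted p = 1.4e-16). Osmr, the oncostatin M receptor, had -0.84 (edgeR's adjusted p = 1.5e-14), and Jak1, the most abundant gene of the list and a kinase of the type I interferon receptor, had -0.32 (edgeR's adjusted p = 4.2e-09). These falls were -0.83, -0.48 and -0.14 with the trends removed. Lifr, the LIF receptor, did not keep its direction, with -0.67 in the TMM fit (edgeR's adjusted p = 5.2e-11) and 0.43 once the trends were removed. Il2rg, the common gamma chain that also serves the IL-4 receptor, rose from 14 and 18 to 52 and 40 counts (log2 fold change 1.37, standard error 0.37, edgeR's adjusted p = 0.00194).

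Of the sensors, adaptors and kinases that act on IRF3, IRF5 and IRF7, 7 of 20 tested genes were higher and 5 lower (35 and 25%, beside 33.8 and 33.6% of all genes), with a median of -0.05 on the log2 scale. Without the trends 11 were higher and 5 lower, beside 38.2 and 25.2% of all genes. The genes that rose include 2 RNA helicases, Dhx58, which encodes the regulatory sensor LGP2, and Rigi. Dhx58 went from 18 and 7 to 157 and 117 counts (log2 fold change 3.30, standard error 0.30, edgeR's adjusted p = 3.4e-10). With 7 counts in shCtrl replicate 2, it passed the filter on low counts only with the shUSP9X libraries, so the filter favoured a rise. With at least 10 counts required in every library Dhx58 was not tested, and 6 genes of the list were higher. Rigi, the most abundant of the list, went from 2204 and 1980 to 5432 and 4821 counts (log2 fold change 1.15, standard error 0.04, edgeR's adjusted p = 3.1e-18). Myd88, the adaptor of Toll-like receptors, rose by 0.87 on the log2 scale (edgeR's adjusted p = 9.2e-10). Tank, an adaptor that binds TBK1, fell from 922 and 839 to 540 and 412 counts, with a log2 fold change of -1.03 (edgeR's adjusted p = 1.2e-11) that shrank to -0.23 with the trends removed. Tbk1 itself, named after its values were seen because it phosphorylates IRF3 and IRF7, had -0.42 (edgeR's adjusted p = 7.9e-07) and -0.23 with the trends removed.

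Of 20 inhibitors of STATs and IRFs, all tested, 6 were higher and 8 lower (30 and 40%, beside 33.8 and 33.6% of all genes), and the median was 0.07 on the log2 scale. With the trends removed 11 were higher and 4 lower, beside 38.2 and 25.2% of all genes. Usp18, which blocks the type I interferon receptor and removes ISG15 from proteins, stood apart from the rest of its list. It was counted 24 and 39 times in shCtrl and 502 and 447 times in shUSP9X libraries (log2 fold change 3.76, standard error 0.18, edgeR's adjusted p = 2.9e-16). Socs1, a suppressor of Janus kinases, rose from 18 and 25 to 45 and 43 counts (log2 fold change 0.89, standard error 0.35, edgeR's adjusted p = 0.029), a call lost with the trends removed (edgeR's adjusted p = 0.0721). Socs2, which restrains growth hormone signaling, fell from 132 and 133 to 71 and 74 counts (log2 fold change -1.01, standard error 0.20, edgeR's adjusted p = 6.3e-05). Socs4 had -0.97 (edgeR's adjusted p = 7.2e-10) and turned to 0.25 with the trends removed. Ptpn11, a phosphatase and the most abundant of the list, rose by 0.13 (edgeR's adjusted p = 0.00443).

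Downstream, most targets of ISGF3 were higher, as Stat2 and Irf9 were. Of 34 genes, all tested, 30 were higher and 3 lower (88.2 and 8.82%, beside 33.8 and 33.6% of all genes), with a median of 1.75 on the log2 scale, and the median was also 1.75 with Ifit3b, which lay under the floor in the shCtrl libraries, set at its lower bound. Zbp1, Ifit3b and Mx1, the latter pair looked up after the values were seen, had at most 4 counts in either shCtrl library and passed the filter on low counts through the shUSP9X libraries alone, so their direction was set by it, and with at least 10 counts required in every library 26 were higher. Zbp1, a sensor of nucleic acid in the Z form, went from 3 and 4 to 140 and 122 counts (log2 fold change 5.04, standard error 0.37, edgeR's adjusted p = 4.1e-12). Oas2, which makes the second messenger of RNase L, went from 38 and 23 to 642 and 622 counts (log2 fold change 4.23, standard error 0.16, edgeR's adjusted p = 4.3e-18). Rtp4 and Oas3 had 3.71 and 3.55 (edgeR's adjusted p = 3.4e-18 and 5.6e-20), and Bst2, tetherin, the most abundant of the list, had 1.58 (edgeR's adjusted p = 1.7e-15). The rise was wide but not complete. Looked up after the values were seen, the lower genes were Samd9l, Ifit2 and Eif2ak2, the antiviral kinase PKR, at -2.57, -0.63 and -0.56, and with the trends removed Samd9l alone passed the test, at -1.53. Trafd1 had -0.04 and did not pass (edgeR's adjusted p = 0.789). Several genes of this list have close copies (Oas1a and Oas1g, Ifit3 and Ifit3b), between which estimated counts may have divided reads wrongly.

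Targets of IRF1 and of the interferon-gamma response were higher for 22 of the 24 tested genes (91.7%, beside 33.8% of all genes) and lower for none, with a median log2 fold change of 1.15, and 19 were higher with at least 10 counts required in every library. Irf1, the factor itself, had 0.08. Gbp3 and Gbp2, guanylate-binding GTPases of cell defence, had log2 fold changes of 3.10 and 1.62 (edgeR's adjusted p = 4.0e-16 and 5.0e-12). Irgm2 and Igtp, of the related immunity GTPases, had 2.44 and 2.34 (edgeR's adjusted p = 1.2e-15 and 9.9e-15). B2m, the light chain of MHC class I and the most abundant of the list, went from 3738 and 3223 to 6313 and 5581 counts (log2 fold change 0.63, standard error 0.04, edgeR's adjusted p = 2.9e-13, and 1.04 with the trends removed). Many genes of this list also answer ISGF3, so these lists do not separate the complexes.

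The targets of STAT3 went both ways, as 13 of 24 tested genes were higher and 10 lower (54.2 and 41.7%, beside 33.8 and 33.6% of all genes), with a median on the log2 scale of 0.18 beside 0.07 for Stat3. Stat3 itself is counted among these 24 genes and did not pass the test. Saa3 and Lcn2, acute phase genes that NF-κB and C/EBP factors also drive, rose by 2.06 and 2.01 (edgeR's adjusted p = 5.9e-17 and 2.3e-13). Icam1, an adhesion molecule, rose by 1.05 (edgeR's adjusted p = 4.2e-09) and Ccnd1, cyclin D1 and the most abundant of the list, by 0.32 (edgeR's adjusted p = 1.2e-09). Fos, an immediate early gene, fell from 710 and 711 to 29 and 34 counts (log2 fold change -4.63, standard error 0.15, edgeR's adjusted p = 1.2e-19).

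Of 20 targets of STAT6, 9 were tested, 5 were higher and none was lower (55.6%, beside 33.8% of all genes higher), with a median of 0.33 beside 0.30 for Stat6. Retnla, at 0 in the shCtrl libraries, passed the filter through the shUSP9X libraries alone, so its direction was set by it, and the median of the other 8 was 0.30. Leaving out shCtrl replicate 1 or shUSP9X replicate 1 gave 3 higher, and 3 were higher at the study's cutoff, beside 10.8% of all genes. Tgm2, a transglutaminase, rose from 1268 and 1259 to 2469 and 1946 counts (log2 fold change 0.66, standard error 0.06, edgeR's adjusted p = 8.6e-11). Bcl6, a repressor, rose by 0.33 (edgeR's adjusted p = 0.00633) and Il4ra, the IL-4 receptor chain, by 0.15 (edgeR's adjusted p = 0.00961). Socs1, described above, is on this list too. Retnla, named after its values were seen, was at 0 in both shCtrl libraries and at 16 and 19 counts in the shUSP9X libraries.

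**Figure D4:**
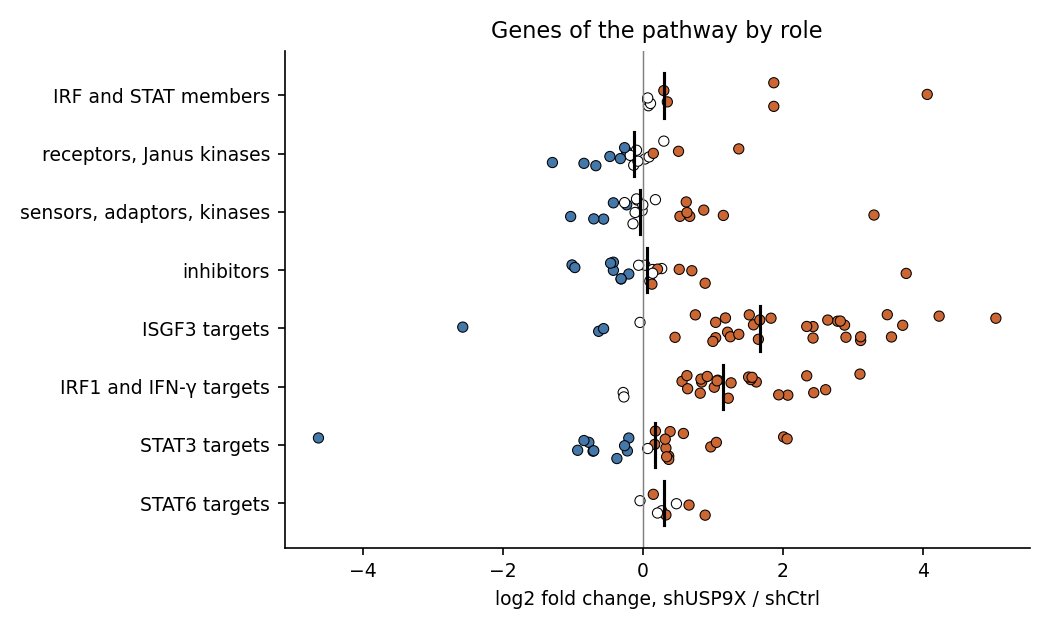
Log2 fold change of shUSP9X against shCtrl cells (x axis) for each tested gene of the members and of 7 lists of the pathway, with orange for higher and blue for lower genes at an adjusted p (edgeR) under 0.05, white for genes not called and a black bar at the median. Points are spread vertically for legibility, and Ifit3b and Retnla, at or under 3 counts in both shCtrl libraries, are left out, which puts the medians drawn for the ISGF3 and STAT6 targets at 1.67 and 0.30. The ISGF3 and the IRF1 and interferon-gamma targets lie mostly right of 0, and the receptors, sensors and inhibitors lie around it.

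Leukocyte markers were counted because blood cells express several of these factors. The list held 23 genes, of which 6 were tested, and 5 of these had at most 4 counts in either shCtrl library, so they passed the filter on low counts through the shUSP9X libraries alone and their direction was set by it. The stem cell factor receptor gene Kit, the most abundant, went from 130 and 112 to 219 and 179 counts. Itgam, the integrin CD11b, went from 0 in both shCtrl libraries to 72 and 75 counts, and Adgre1, F4/80, from 0 to 58 and 59. Cd74, the invariant chain, went from 1 and 4 to 49 and 45 counts, and Ptprc, CD45, and Csf1r were at 0 in the controls and at 29 and 18 and at 17 and 13 counts in the knockdown libraries, the latter pair looked up after the values were seen. Some myeloid transcripts were thus present in the shUSP9X libraries at a low level. Without Kit the whole list summed to 0.115 and 0.316 CPM in shCtrl and 11.7 and 12.8 CPM in shUSP9X libraries, while Irf7 alone was at 171 and 167 CPM there. In both shUSP9X libraries 13 markers had no count, among them Cd3e of T cells, Ms4a1 of B cells, Ncr1 of NK cells, Siglech and Flt3 of dendritic cells, and the macrophage gene C1qa. Lyz2, another macrophage gene, had 0 and 2 counts, and Irf8 and Irf4 had none. The part of these transcripts in the rise of Irf7, Irf9 and Stat2 was not tested.

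Most, but not all, markers of the labelled cell type were counted in every library. Of 14 ovarian surface epithelial and mesothelial genes 11 were tested, with 4 higher and 5 lower (36.4 and 45.5%, beside 33.8 and 33.6% of all genes). Muc16 and Lrrn4, the latter looked up after its values were seen, had at most 9 counts in either shUSP9X library. They passed the filter on low counts through the shCtrl libraries alone, so their direction was set by it. With at least 10 counts required in every library 4 were higher and 3 lower. Vim, vimentin, the most abundant, rose by 0.39 on the log2 scale (edgeR's adjusted p = 3.0e-12), and the keratins Krt8 and Krt18 rose by 0.92 and 0.64 (edgeR's adjusted p = 5.5e-18 and 1.3e-14). With the trends removed these values were 0.19, 0.68 and 0.37. Wt1, the mesothelial transcription factor, was counted 6210 and 5892 times in the controls and 5070 and 4253 times after knockdown (log2 fold change -0.52, edgeR's adjusted p = 4.0e-12). Muc16, which encodes CA125, had 33 and 43 counts against 1 and 0. The epithelial genes Epcam and Pax8, chosen after their values were seen, had at most 9 counts in any library.

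The genes whose pattern over the 4 libraries was nearest to that of Irf7, by the Euclidean distance between centred log2 CPM with the members left out, were Slc14a1, Csf2rb2, Oas2 and Ccr3. Their distances were 0.14, 0.15, 0.35 and 0.36. Slc14a1, a urea transporter, was counted 10 and 8 times in shCtrl and 196 and 162 times in shUSP9X libraries. Csf2rb2, a receptor chain of IL-3, and Ccr3, the eotaxin receptor, had no count in the controls and 33.36 and 28 and 35 and 22 in the knockdown libraries. A prior count of 2 was added before taking logs, so for Csf2rb2 and Ccr3 the distance rests on that prior, and their likeness to Irf7 in size is not a measured one. The prior also weighs on Slc14a1, with its 10 and 8 control counts. Slc14a1, Csf2rb2 and Ccr3 passed the filter on low counts through the shUSP9X libraries alone, so their direction was set by it.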

How the data were processed

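Total RNA of ID8 cells was extracted with TRIzol, enriched for poly(A) and sequenced on an Illumina NovaSeq. The authors deposited 1 table with an estimated count per gene and library, not normalized, and an FPKM value scaled by them for length and library size. Their methods name GRCm38, StringTie and DESeq2, and the submitters' processing notes list fastp 0.18.0, Bowtie2 2.2.8, HISAT2, StringTie 1.3.1 and RSEM without roles. Whether the counting used strand is not given in the sources used here. Of the 22063 genes, 7085 were at 0 in all libraries. The test was planned for whole counts. Since 6.395 to 6.69% of the values were not whole, estimated counts were rounded, filtered with filterByExpr, TMM-scaled and compared by quasi-likelihood F-tests in edgeR 4.0.16 (R 4.3.3, 2 residual degrees of freedom), with Benjamini-Hochberg adjustment over 11448 genes and no block. Biological variation between libraries had a common coefficient of 0.03518. Libraries of a group differed by more than sampling noise (chi-square per gene 3.375 in shCtrl, 2.085 in shUSP9X). With 2 libraries against 2, no permutation test can reach a p of 0.05.

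The alternatives were DESeq2 1.42.0, its size factors, upper-quartile and library-size scaling, no filter beyond 1 count, at least 10 counts in every library, limma 3.58.1 on the log2 of FPKM plus 1 or plus 0.1 where mean FPKM reached 1, the replicate number as a block, an offset for each library's loess trend (span 0.3, known for 99.84% of genes) on GC content and length of the longest coding transcript in GENCODE M21, block and offset together, each library left out, and the study's cutoff. Fold changes followed GC content (Spearman's rho = 0.4467) and length (rho = -0.3311) across 11430 genes, which are not independent replicates. The offset takes out any difference that follows them, whatever its origin. Procedures were tested on simulated data.

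The members and the lists were chosen with earlier results of these data known, and list counts are therefore descriptions. Named genes are Usp9x, the members, other IRF and STAT genes, from each list up to 4 genes with the largest change among those called, without overlap and with a mean of at least 1 CPM, the gene highest in FPKM, and the 4 genes nearest to the member that changed most. Genes outside this rule are marked as chosen after their values were seen. Some genes of these families and lists are not reported here. Promoter windows came from RefSeq. Molecular identifiers are not described, so errors and floors cover counting error only.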

Additional observations from a re-analysis of the deposited data

How the results depend on the processing

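The rises of Irf7, Irf9, Stat2 and Stat6 passed the test in each of the 15 alternative fits. Irf3 and Irf5 passed it in none of them, and the calls of Irf1, Irf2 and Stat3 depend on the setting. Irf2 was lost in both FPKM fits (log2 fold changes of 0.25 and 0.23, limma's adjusted p = 0.0506 and 0.051) and without shCtrl replicate 2. Stat3 passed with the GC content and length offset, with upper-quartile scaling (0.11, edgeR's adjusted p = 0.0421) and without shCtrl replicate 2 (0.12, edgeR's adjusted p = 0.0175), and Irf1 without shCtrl replicate 1 (0.13, edgeR's adjusted p = 0.0395). At this depth Irf5, with 137 to 212.46 counts, had the largest standard error of the members, 0.16. Where a fit leaves 1 library in a group, that library is assumed to vary like the other group.

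The replicate numbers were not taken to pair the libraries, since the differences between replicates 1 and 2 did not go together between the groups (Pearson's r = -0.04529 across genes). With the replicate block 7665 genes were called, against 7707 without it, 5 members were higher and no called ligand was lower (0 against 1). The block changed no other count by more than 1.5 times and no member's call.

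Among the members and the other family genes, settings that turned a sign did so for genes that did not pass the test in the TMM fit. With the offset, Irf1 went to -0.11, Irf3 to -0.16 and Irf5 to -0.11, and with the replicate block and the offset together they went to -0.11, -0.16 and -0.10. In that last fit Irf1 counted as lower (edgeR's adjusted p = 0.0378), which made 1 member lower instead of 0. On log2(FPKM + 1) and log2(FPKM + 0.1), Irf3 went to -0.02 in both, Stat5b to -0.01 in both and Stat5a to -0.35 and -0.42, the former past the threshold (limma's adjusted p = 0.0489), so that 1 other family gene was lower instead of 0. With library size only, Stat5b went to -0.01. Leaving out each library in turn, the log2 fold change ranged from -0.08 to 0.33 for Irf5 and from -0.02 to 0.07 for Stat5b.

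At the study's cutoff 3376 genes were called, 10.8% of all genes tested being higher and 18.7% lower, and 3 members were higher. The lists then held fewer calls: 1 receptor or kinase higher and 3 lower, 2 sensors or adaptors lower, 3 inhibitors higher and 2 lower, 4 STAT3 targets higher and 6 lower, 3 STAT6 targets higher, 2 ovarian markers higher and 2 lower, and 0 ligands lower. With the offset, alone or with the block, 7 receptors or kinases, 11 sensors or adaptors and 11 inhibitors were higher and 4 inhibitors lower. With the offset alone 1 ISGF3 target was lower. The call for the ligand Clcf1 was lost, leaving 0 lower ligands, in DESeq2, with its size factors, with upper-quartile scaling, without the filter and in both FPKM fits, and with each library left out 0 to 1 was lower. Without the filter 2 ligands were higher. In the fits on log2(FPKM + 1) and log2(FPKM + 0.1), 2 and 1 leukocyte markers were higher, 2 STAT6 targets were higher in both and 3 ovarian markers were lower in both. With at least 10 counts in every library 1 leukocyte marker was higher and 3 ovarian markers were lower, since fewer genes were tested. The number of STAT6 targets higher ranged from 3 to 5 with each library left out. The causes of the other shifts were not tested.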

Other observations

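Promoter windows of the wider pathway held the motifs in unequal shares, given as descriptions. Of the ISGF3 targets with a window, 12 of 27 held GAAANNGAAA (44.4%), as did 11 of 23 targets of IRF1 and interferon-gamma (47.8%) and 12 of 25 ligands (48%), beside 3.99% of the 27025 genes with a window. The share was 13.6% for STAT3 targets and 8.33% for STAT6 targets, and none of the 17 receptors and Janus kinases held it. The gamma-activated site TTCNNNGAA was in 44% of the ligand windows, 26.1% of those of the targets of IRF1 and interferon-gamma, 22.2% of those of ISGF3 targets, 18.2% of those of STAT3 targets and 33.3% of those of STAT6 targets, beside 9.55% of all genes. Of the ligands, 21 of 28 had no count in any of these libraries.

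Several members overlap another gene in GENCODE M21, and because strand marking of the libraries is not described, reads from the shared bases cannot be assigned by strand. Rnf31, an E3 ligase gene of the linear ubiquitin complex that overlaps Irf9 on the same strand, went from 300 and 247 to 612 and 508 counts (log2 fold change 0.89, standard error 0.10, edgeR's adjusted p = 1.6e-08), a smaller change than the 1.87 of Irf9. Bcl2l12, which overlaps Irf3, had 0.66 (edgeR's adjusted p = 0.00212) and Irf3 had 0.07. Phrf1, which overlaps Irf7, had 0.10 (edgeR's adjusted p = 0.0532) beside 4.06. Tnpo3 with Irf5, Nab2 with Stat6 and Stat5a with Stat3 had -0.18, 0.16 and 0.14 on the log2 scale. These neighbours were chosen by position and lie outside the rule for named genes.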
